A study of Homo sapiens with 6 samples.

Results

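Translation initiation factors are the proteins that bring the small ribosomal subunit, the initiator tRNA and the mRNA together at a start codon. The genes described here are those listed in the authors' deposited table under a name that starts with EIF and a number, without the kinases of eIF2, antisense RNAs and pseudogenes. These are 51 of 26364 genes in the table, of 60 rows with such a name. They were measured in REH cells, a human leukaemia line of the B-precursor acute lymphoblastic type. Cells received 50 µM S3I-201, a compound aimed at the transcription factor STAT3, for 6 h, or its solvent DMSO for the same 6 h. Each group held 3 RNA-seq libraries from independent experiments, per the labels, and the table pools all 6 libraries of this single line into one mean, one fold change and one test per gene.

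No value per library was used, so the spread within a group is seen here only through the authors' test. The mean normalized count is a read count divided by a size factor that corrects for depth, averaged over the libraries. Steps of single reads among the rarest genes put the size factors of the libraries between 0.573 and 1.27 and their depths between about 6600000 and 14500000 counts. The table does not say which group is the denominator of its fold change. A positive value was taken to mean higher in S3I-201. If the authors used the opposite sign, all directions below are turned round. The fold changes appear shrunken towards 0, so that large changes of noisy genes are understated. Of 12 markers of B-precursor cells fixed for a check of the label, 11 had a mean normalized count of at least 100 per the authors' deposited table, with VPREB1 listed at 0. Of 11 markers of other cell types 6 were listed at 0, and only MPO, at 978 per the authors' deposited table, was above 100.

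Initiation begins with eIF2, which carries the initiator tRNA as a complex with GTP and is recharged by the exchange factor eIF2B. The factors eIF1, eIF1A, eIF3 and eIF5 hold the small subunit in a state that can scan, while eIF4F, made of the cap-binding eIF4E, the helicase eIF4A and the scaffold eIF4G, brings in the mRNA. The 4E-binding proteins are small repressors that occupy eIF4E unless mTORC1 phosphorylates them. Phosphorylation of eIF2 under stress lowers general initiation and favours the mRNA of the transcription factor ATF4.

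The comparison asks which of these transcripts changed when STAT3 was targeted. A repressor of the cap complex, a start codon gatekeeper and a single subunit of eIF2 were higher with S3I-201, while the other factors did not pass the test. EIF4EBP1, the gene of 4E-BP1, was 1.91-fold higher, EIF1 1.86-fold higher and EIF2S2, the beta subunit of eIF2, 1.47-fold higher per the authors' deposited table. Of 45 members with an adjusted p, these 3 passed 0.05 by the authors' DESeq2 test, 0 were lower and 42 did not pass. At an unadjusted p under 0.05, 3 members were positive and 4 negative. The 3 calls are 6.67% of the tested members, against 5.90% of the 11912 genes tested, so the share called in the family was near the background. Among all genes tested 4.45% were higher and 1.45% lower. The median log2 fold change of the 45 members was -0.07, with quartiles of -0.13 and 0.03, against a median of -0.02 and quartiles of -0.16 and 0.15 over all genes tested.

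**Figure D1:**
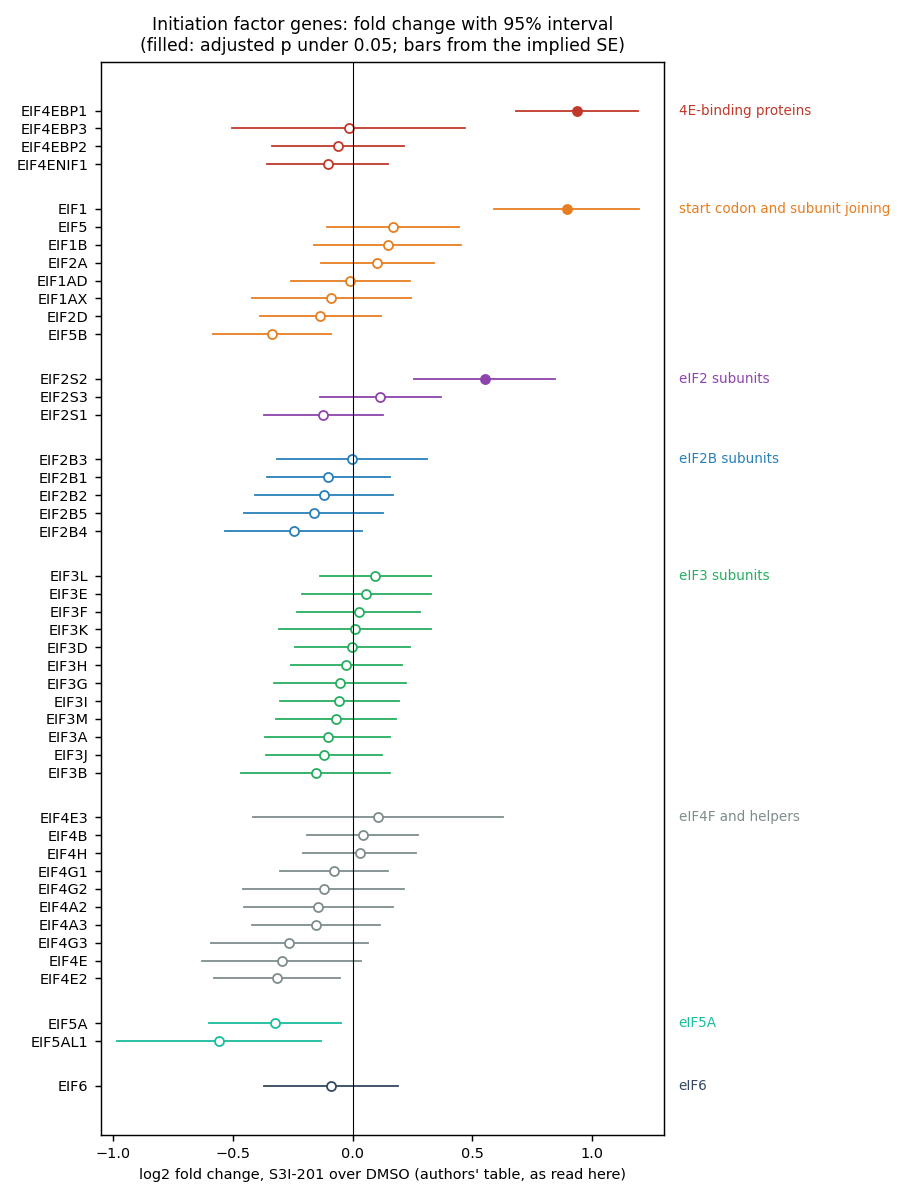
Log2 fold change (x axis, S3I-201 over DMSO) of the 45 tested initiation factor genes (rows, by group) from the authors' deposited table, with 95% intervals from the implied SE as bars. Filled points passed an adjusted p of 0.05; EIF4EBP1 at 0.94, EIF1 at 0.89 and EIF2S2 at 0.55 lie to the right, and 38 of 45 bars cross 0.

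Of the members, 6 were listed at 0 and have no fold change. EIF4A1, EIF3C and EIF3CL are among them, of which eIF4A1 and eIF3c are factors that every growing cell uses, so a value of 0 in the table does not show that the gene is silent. All 1756 exon bases of EIF4A1 lie under exons of another gene on the same strand in GENCODE 29, and 83.5% of them under the readthrough gene SENP3-EIF4A1, which had a mean of only 10.4 per the authors' deposited table. The coding sequences of EIF3C and EIF3CL differ at 3 of 2745 aligned positions. Whether the counting dropped such shared reads was not tested. The other genes listed at 0 were EIF4E1B, an eIF4E relative of germ cells, EIF5A2, a second eIF5A gene, and EIF1AY. All 45 members above 0 had an adjusted p, 43 of them with a mean of at least 100, so the filter on low values removed no member that had reads.

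The 4E-binding proteins differed among themselves. EIF4EBP1 had a mean normalized count of 1348 and a log2 fold change of 0.94 per the authors' deposited table (adjusted p = 1.12e-10, implied SE 0.13). With equal group sizes, that mean and fold correspond to about 1771 normalized counts in S3I-201 and 925 in DMSO. Because the fold appears shrunken towards 0, such values may lie closer together than the group means, here and for EIF1 and EIF2S2 below. The gene lies on chromosome 8 from 38030341 to 38060365 (hg38, plus strand, whole gene), and its exons overlap those of no other gene in GENCODE 29, which names 1 pseudogene after it. In mouse pancreatic islets ATF4 is known to induce this gene. EIF4EBP2, which encodes the paralogue 4E-BP2, had a mean of 4097 and a log2 fold change of -0.06 per the authors' deposited table (adjusted p = 0.911, implied SE 0.14). EIF4EBP3 had a mean of only 38.9 and a log2 fold change of -0.02 (implied SE 0.25, adjusted p = 0.987) per the authors' deposited table, and 73.4% of its exon bases also belong to the readthrough gene ANKHD1-EIF4EBP3. EIF4ENIF1, the 4E-T protein that takes eIF4E into the nucleus and to processing bodies, had -0.10 on the log2 scale per the authors' deposited table (adjusted p = 0.791, implied SE 0.13). Only the first of these intervals lies wholly above 0, from 0.68 to 1.19 for EIF4EBP1 against -0.34 to 0.21 for EIF4EBP2. By mean normalized count EIF4EBP2 was the more abundant of the pair. Per kilobase of exon the order was reversed, with 1322 normalized counts for EIF4EBP1 and 565 for EIF4EBP2. That measure divides by all exon bases, 1.02 kilobases for EIF4EBP1 and 7.26 for EIF4EBP2. It is too low where a shorter transcript is the one expressed, so which transcript is more abundant is not settled.

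Set beside the 41 tested core factors, meaning the members other than 4E-binding proteins, EIF4EBP1 had the largest log2 fold change, at rank 1 of the 45 members. The core factors ranged from -0.56 for EIF5AL1 to 0.89 for EIF1 on the log2 scale per the authors' deposited table, with a median of -0.08, which is 1.01 below EIF4EBP1. The 95% interval of EIF4EBP1 lies above the whole interval of 39 of the 41 core factors and overlaps those of the other two, EIF1 and EIF2S2. The authors' test compares each gene between the groups and not one gene with another, so the distance between EIF4EBP1 and a core factor was not itself tested. Among all 11912 tested genes EIF4EBP1 ranked 181 by log2 fold change. EIF4E, the gene of its target, did not pass, with a mean of 509 and a log2 fold change of -0.30 per the authors' deposited table (adjusted p = 0.407, implied SE 0.17).

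**Figure D2:**
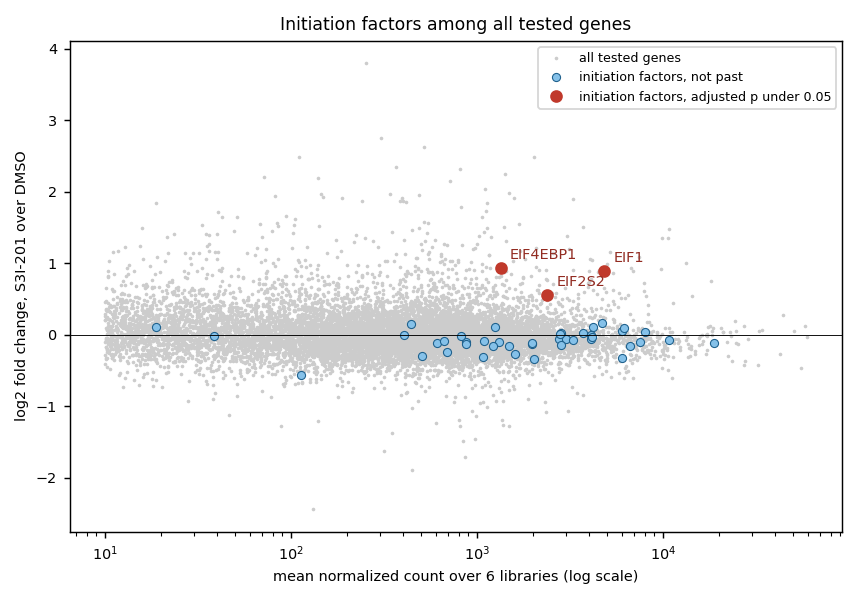
Log2 fold change (y axis, S3I-201 over DMSO) against the mean normalized count over 6 libraries (x axis, log scale) for the 11912 tested genes in grey and the 45 initiation factors in colour. EIF4EBP1 (1348), EIF2S2 (2395) and EIF1 (4838) in red passed an adjusted p of 0.05 and stand above the other members, which lie between -0.56 and 0.17.

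Factors that select the start codon and join the subunits held the second call. EIF1 encodes the small protein that keeps the scanning ribosome from starting at wrong codons. It had a mean of 4838 and a log2 fold change of 0.89 per the authors' deposited table (adjusted p = 8.36e-07, implied SE 0.15), which correspond to about 6289 normalized counts in S3I-201 and 3387 in DMSO. EIF1 lies on chromosome 17 from 41688885 to 41692668 (hg38, plus strand) and shares no exon bases with another gene there, although GENCODE 29 names 7 pseudogenes after it. Its close paralogue EIF1B had a mean of 444 and a log2 fold change of 0.15 per the authors' deposited table (adjusted p = 0.744, implied SE 0.16). The interval of EIF1 runs from 0.59 to 1.20 and that of EIF1B from -0.16 to 0.45, so that the pair does not overlap.

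The coding sequences of EIF1 and EIF1B are 82.2% identical over 342 bases. Their first 150 bases (GENCODE 29 transcripts, 5′ to 3′) are given because reads from this pair must be told apart by such differences, and capitals mark the 24 positions at which they differ.
EIF1: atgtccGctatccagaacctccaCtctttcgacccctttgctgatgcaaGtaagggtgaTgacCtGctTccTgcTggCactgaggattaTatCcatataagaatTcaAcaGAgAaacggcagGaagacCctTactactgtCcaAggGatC
EIF1B: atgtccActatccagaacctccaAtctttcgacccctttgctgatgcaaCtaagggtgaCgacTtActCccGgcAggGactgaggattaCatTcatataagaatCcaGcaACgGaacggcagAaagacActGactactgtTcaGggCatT
The differences are spread along the whole stretch.

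EIF5, which makes eIF2 hydrolyse its GTP at the start codon, had a log2 fold change of 0.17 (adjusted p = 0.639) per the authors' deposited table. EIF2A, a factor for initiation without eIF2, had 0.10 (adjusted p = 0.777), and EIF2D, which can place a tRNA on the ribosome in the absence of GTP, had -0.13 (adjusted p = 0.709) per the authors' deposited table. EIF1AX, the eIF1A of the X chromosome, stood at -0.09 and EIF1AD, an eIF1A-like protein, at -0.01 on the log2 scale, and neither passed per the authors' deposited table. EIF5B, the GTPase that joins the large subunit, had the lowest value of this group, -0.34 per the authors' deposited table (implied SE 0.13). EIF5B had an unadjusted p of 0.00750 and an adjusted p of 0.0996 per the authors' deposited table, so it did not pass. In GENCODE 29, 14.7% of its exon bases overlap REV1 on the opposite strand, and the libraries do not mark the strand. In all, this group had 1 higher call in 8 tested members (12.5%, against 4.45% of all genes tested), and the other 7 did not pass.

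Within eIF2 the subunits had unequal values. EIF2S2 had a mean of 2395 and a log2 fold change of 0.55 per the authors' deposited table (adjusted p = 0.00671, implied SE 0.15), or about 2847 normalized counts in S3I-201 and 1943 in DMSO. It lies on chromosome 20 from 34088298 to 34112332 (hg38, minus strand), with no exon overlap and 4 pseudogenes named after it in GENCODE 29. Of the pseudogenes named after EIF4EBP1, EIF1 or EIF2S2, 0 are listed by name in the authors' deposited table. Sharing of reads between these genes and their pseudogenes was not tested. EIF2S3, the gamma subunit that binds GTP and the tRNA, had 0.12 (implied SE 0.13, adjusted p = 0.758) per the authors' deposited table. EIF2S1, the alpha subunit that the stress kinases phosphorylate, had -0.12 (implied SE 0.13, adjusted p = 0.734) per the authors' deposited table. The interval of EIF2S2, from 0.26 to 0.85, lies above that of EIF2S1, from -0.37 to 0.13, and overlaps that of EIF2S3, from -0.14 to 0.37. Per kilobase of exon the mean levels were 1475 normalized counts for EIF2S3, 902 for EIF2S2 and 379 for EIF2S1.

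All 5 genes of the exchange factor eIF2B had values below 0. By the authors' DESeq2 adjusted p, 0 of them passed, against 5.90% of all genes tested. At an unadjusted p under 0.05 there were 0, against 16.0% of all genes tested. The log2 fold changes of the eIF2B genes ran from -0.25 for EIF2B4 (adjusted p = 0.440) to -0.00 for EIF2B3 (adjusted p = 0.998) per the authors' deposited table. Among them EIF2B5, the catalytic subunit, had -0.16 (implied SE 0.15, adjusted p = 0.689) per the authors' deposited table. Their mean levels per kilobase of exon lay between 141 and 417 normalized counts, at the low end of the family. With the median fold change of genes of like abundance subtracted, 4 of the 5 stayed below 0. Without that step, 68.9% of all tested members and 53.6% of all genes tested were below 0.

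The scaffold eIF3, the largest of the factors, showed a narrow range of values. By the authors' DESeq2 adjusted p, 0 of its 12 tested genes passed, against 5.90% of all genes tested. At an unadjusted p under 0.05 there were 0, against 16.0% of all genes tested. The log2 fold changes of the 12 lay between -0.15 for EIF3B, a core scaffold subunit, and 0.09 for EIF3L per the authors' deposited table. Their median was -0.04. The median implied SE of these genes was 0.13, against 0.18 over all genes tested. EIF3A, the largest subunit, had -0.10 (implied SE 0.13) and EIF3D, which can bind the cap of some mRNAs, -0.00 (implied SE 0.12) per the authors' deposited table. The 95% intervals of these genes lie between -0.46 and 0.33, so changes beyond those limits are not covered by any of them. Of the 12 values 8 were below 0, but with the abundance trend removed 4 were. Levels within eIF3 ranged from 376 normalized counts per kilobase of exon for EIF3F to 3920 for EIF3E. The exon lengths that they were divided by also differ, 7.55 kilobases for EIF3F and 1.54 for EIF3E.

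**Figure D3:**
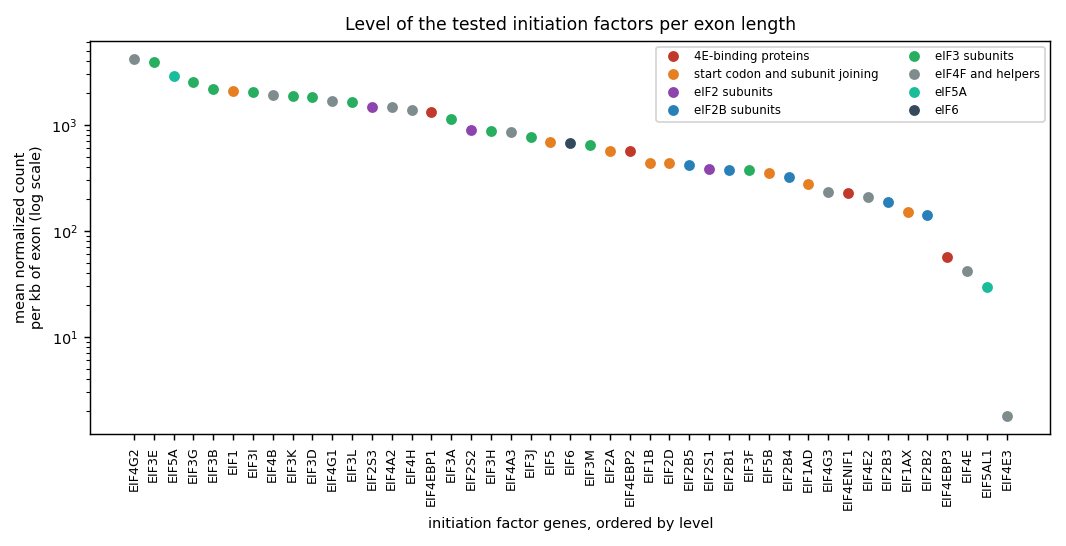
Mean normalized count per kilobase of exon (y axis, log scale, GENCODE 29 basic exons) of the 45 tested initiation factors (x axis, ordered by level), coloured by group. EIF4G2 at 4217 and EIF3E at 3920 were highest, EIF4EBP1 stood at 1322, and EIF4E3 at 1.78 was lowest.

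The cap complex eIF4F and helpers had 0 calls in 10 tested genes by the authors' DESeq2 adjusted p, against 5.90% of all genes tested. Against 16.0% of all genes tested, 1 of the 10 had an unadjusted p under 0.05. That gene was EIF4E2, a cap-binding relative of eIF4E that can repress translation, at -0.32 per the authors' deposited table (adjusted p = 0.172, implied SE 0.13). Antisense and other genes overlap EIF4E2 in GENCODE 29, and 22.8% of its exon bases lie under the antisense gene AC073254.1. The scaffolds EIF4G1 at -0.08, EIF4G2, which works without the cap-binding protein, at -0.12 and EIF4G3 at -0.26 did not pass per the authors' deposited table. The helicases EIF4A2 at -0.14 and EIF4A3, which marks exon junctions, at -0.15 did not pass either per the authors' deposited table. EIF4B at 0.04 and EIF4H at 0.03, both stimulators of the helicase, were nearest to 0 per the authors' deposited table. EIF4E3 had a mean of only 18.9 and a log2 fold change of 0.11 per the authors' deposited table (implied SE 0.27), so that its interval, from -0.42 to 0.63, is wide. EIF4G2 had the highest level of all members, 4217 normalized counts per kilobase of exon, and EIF4E was near the other end with 42.0. The long exons counted for EIF4E, 12.1 kilobases in all, lower that value where a shorter transcript is the one expressed.

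eIF5A helps ribosomes past difficult peptide bonds and carries the modified residue hypusine. EIF5A had a mean of 6005 and a log2 fold change of -0.32 per the authors' deposited table (implied SE 0.14, unadjusted p = 0.0219, adjusted p = 0.194). EIF5AL1, an intronless copy on chromosome 10, had the lowest value among the members, -0.56 at a mean of 114 per the authors' deposited table (implied SE 0.22, unadjusted p = 0.0101, adjusted p = 0.120). Neither passed. Reads of the copy are uncertain, since its coding sequence differs from that of EIF5A at 5 of 465 positions. The first 150 coding bases of both (GENCODE 29 transcripts, 5′ to 3′) are shown for that reason, with the 4 differing positions in capitals.
EIF5A: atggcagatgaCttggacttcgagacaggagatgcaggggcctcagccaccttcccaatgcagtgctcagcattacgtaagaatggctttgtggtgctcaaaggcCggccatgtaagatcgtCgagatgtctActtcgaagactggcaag
EIF5AL1: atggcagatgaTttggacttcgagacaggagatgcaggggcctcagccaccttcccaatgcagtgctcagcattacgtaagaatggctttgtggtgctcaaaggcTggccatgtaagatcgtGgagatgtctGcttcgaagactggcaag
Long runs without a capital are stretches in which a read fits both genes equally. EIF6, which keeps the ribosomal subunits apart, had -0.09 per the authors' deposited table (adjusted p = 0.851, implied SE 0.14).

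Over the whole family, 4 members had an unadjusted p under 0.05 with a negative value, namely EIF5B, EIF5AL1, EIF4E2 and EIF5A, and 3 with a positive one. Together they are 7 of 45, against 16.0% of all genes tested, of which 9.11% were positive and 6.88% negative. A negative log2 fold change was found in 31 of the 45 tested members (68.9%), against 53.6% of all genes tested. The members were also more abundant, with a median mean of 2037 normalized counts against 410 over all genes tested, and the median log2 fold change of abundance bins ran between -0.07 and 0.06. With the median of genes of like abundance subtracted, 24 of 45 members were below 0 and 21 above. In 36 of the 45 members the log2 fold change was under 0.25 in size, against 8430 of the 11912 genes tested. The members also had a smaller implied SE, with a median of 0.14 against 0.18 over all genes tested.

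Promoters were compared because members of the family had unequal responses. RefSeq's promoter table (GRCh38.p14) held 53 promoters for 38 of the 45 tested members, and the 250 bases upstream of each start were searched on both strands. EIF4EBP1 and EIF2S2 had no entry. The promoters of EIF1, which was higher, and of its paralogue EIF1B, which did not pass, are shown 5′ to 3′ at chr17:41688635-41688884 and chr3:40309457-40309706, both on the plus strand, with motif matches in capitals.
EIF1: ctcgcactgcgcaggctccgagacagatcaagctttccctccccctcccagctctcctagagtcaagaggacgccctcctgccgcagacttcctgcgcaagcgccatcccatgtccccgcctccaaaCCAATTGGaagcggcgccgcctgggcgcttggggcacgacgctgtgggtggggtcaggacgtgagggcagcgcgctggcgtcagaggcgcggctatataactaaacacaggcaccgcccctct
EIF1B: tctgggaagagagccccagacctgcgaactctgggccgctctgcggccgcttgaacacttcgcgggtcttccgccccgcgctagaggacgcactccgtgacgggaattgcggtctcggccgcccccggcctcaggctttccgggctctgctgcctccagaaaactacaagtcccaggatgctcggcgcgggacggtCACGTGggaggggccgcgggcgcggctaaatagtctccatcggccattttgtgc
The capitals in EIF1 are a CCAAT box on each strand, which overlap, at positions -123 and -120 from the start, and those in EIF1B are an E-box (CACGTG, its own reverse complement) at position -54. The E-box was found in 10 of the 53 member promoters (18.9%), among them those of EIF4E, EIF4B, EIF4G1 and EIF4A3, against 6.34% of all 35116 promoters in the table. CCAAT boxes were found in 34.0% of the member promoters and 32.0% of all. The C/EBP-ATF element (TGATGNAA) was found in 1 member promoter (1.89%), that of EIF4E3, against 3.14% of all, and the cAMP response element (TGACGTCA) in 0 of 53, against 1.65% of all. The E-box is the motif that MYC and its relatives bind. Of the called members only EIF1 had an entry, and no E-box was found there. The 35116 promoters were not limited to genes tested here, so the shares come from unlike sets. These counts describe letters in a window and were not tested against the fold changes.

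Other genes of translation were read from lists chosen with earlier results of these data known, so their counts of calls only describe the lists. Over all genes tested, 4.45% were higher and 1.45% lower. The list of eIF2 kinases, phosphatase subunits and their regulators had 2 of 9 tested genes higher (22.2%) and 7 not past. PPP1R15A, the stress-induced GADD34 that brings phosphatase to eIF2, stood at 2.03 (implied SE 0.22, adjusted p = 9.46e-18) per the authors' deposited table. DNAJC3, an inhibitor of the kinase PERK, stood at 1.43 (implied SE 0.18, adjusted p = 9.04e-13) per the authors' deposited table. EIF2AK3, which encodes PERK, at 0.38 (adjusted p = 0.202) and GCN1, which activates the kinase GCN2, at -0.32 (adjusted p = 0.139) did not pass per the authors' deposited table.

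In the list of mTORC1 and eIF4E kinase signalling, 4 of 17 tested genes passed as higher (23.5%, against 4.45% of all genes tested). The other 13 stayed short of the threshold. The genes that passed were SESN2 at 2.25, DDIT4 at 1.99, SESN1 at 1.33 and AKT1S1 at 0.66 on the log2 scale per the authors' deposited table. Each encodes an inhibitor of mTORC1 or of its activation. Further such inhibitors in the list did not pass, namely TSC1 at 0.21, TSC2 at -0.16, DEPTOR at 0.27 and SESN3 at 0.16 per the authors' deposited table. The kinase itself, MTOR, had -0.14 (adjusted p = 0.738) and its partner RPTOR -0.04 (adjusted p = 0.930) per the authors' deposited table. MKNK1 at 0.11 and MKNK2 at 0.19, the kinases of eIF4E, did not pass per the authors' deposited table.

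Among initiation helpers outside the EIF names, 1 of 18 tested genes was higher and 17 did not pass. That share, 5.56%, was near the 4.45% higher over all genes tested. That gene was PDCD4, an inhibitor of the helicase eIF4A, at 0.70 per the authors' deposited table (adjusted p = 0.00125, implied SE 0.17). LARP1, which binds the mRNAs of ribosomal proteins, at -0.26 (adjusted p = 0.226) and PABPC1, the poly(A)-binding protein, at 0.05 (adjusted p = 0.907) did not pass per the authors' deposited table. Of elongation, termination and hypusination genes, 2 of 11 were lower (18.2%, against 1.45% of all genes tested) and 9 did not pass. EEF2K, the kinase that inhibits the elongation factor eEF2, stood at -0.52 (implied SE 0.14, adjusted p = 0.00547) per the authors' deposited table. GSPT1, the release factor eRF3a, stood at -0.39 (implied SE 0.12, adjusted p = 0.0320) per the authors' deposited table. EEF2 had 0.28 (adjusted p = 0.153) and DHPS, which starts hypusine formation on eIF5A, 0.01 (adjusted p = 0.984) per the authors' deposited table. With the abundance trend removed, EEF2 passed (adjusted p = 0.0431) and GSPT1 did not (adjusted p = 0.109).

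ATF4 and other stress response genes, of which SESN2 and DDIT4 also stand in the mTORC1 list, were higher in 14 of 14 tested, with a median of 1.58. Over all genes tested 4.45% were higher. The list was chosen with earlier results of these data known, so this count is no independent support for a response. NUPR1 and VLDLR, with means of 0.70 and 0.13 per the authors' deposited table, had no adjusted p. ATF4 had a mean of 6893 and a log2 fold change of 0.89 per the authors' deposited table (adjusted p = 2.54e-07, implied SE 0.15). Whether ATF4 acts on EIF4EBP1 or EIF1 in these cells was not tested. TRIB3 at 2.48 and CHAC1 at 2.75, both known ATF4 targets, were higher per the authors' deposited table. ATF4's other listed targets ASNS at 1.25 and PSAT1 at 1.65 were also higher per the authors' deposited table.

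**Figure D4:**
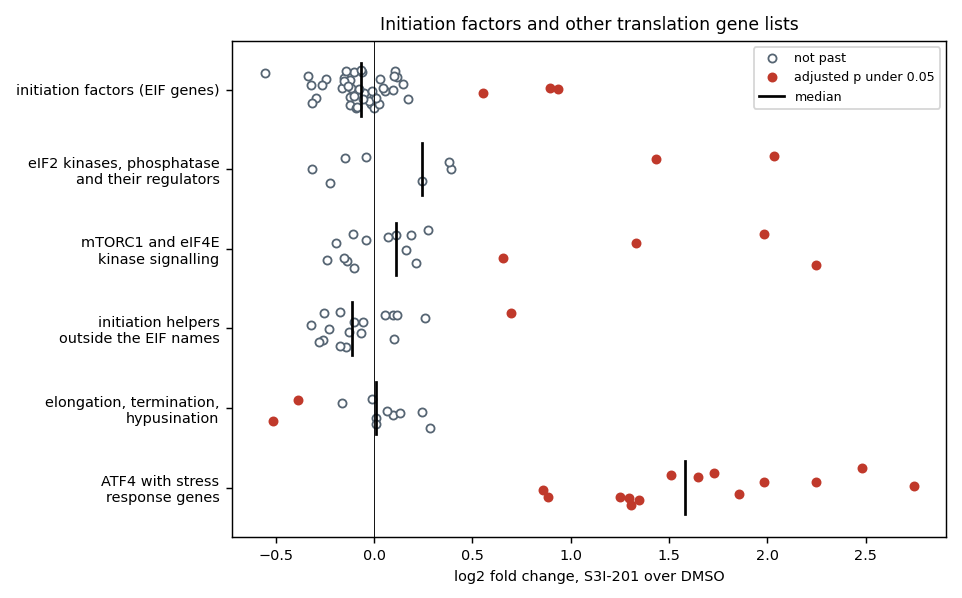
Log2 fold change (x axis, S3I-201 over DMSO) of the tested genes in the initiation factor family and 5 other lists (rows), 1 point per gene, with the list median as a black bar and vertical jitter only for display. Red points passed an adjusted p of 0.05, as did 5.90% of all genes tested. Higher were 3 initiation factors, 2 genes in the eIF2 kinase list, 4 in the mTORC1 list and 1 initiation helper. Also higher were 14 of 14 genes in the ATF4 list, and lower were 2 in the elongation list. The other lists were chosen with earlier results of these data known.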

How the data were processed

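RNA was sequenced from REH cells after S3I-201 or DMSO, 3 libraries each. Libraries followed the TruSeq RNA v2 method, per the labels' protocols, which does not mark the strand. The submitters' processing notes name hg38, bcl2fastq 2.19, Trimmomatic, Bowtie2, Picard, featureCounts and DESeq2; which annotation, strand setting and model were used is not given in the sources used here.

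Per gene, the authors' deposited table gives the mean of normalized counts as a signal of 0 or more. It also gives the log2 fold change, the p-value and its adjusted form, which the authors computed with DESeq2, per the file headers. The planned edgeR test needs counts per library and was not run. The adjusted p is given for 11912 genes, with a lowest mean of 10.0, and recomputing it by the Benjamini-Hochberg method over these genes gave values within 0.675%. To obtain an implied SE, the absolute log2 fold change was divided by the two-sided normal z of its p-value, and 95% intervals use it. A positive sign was taken as higher in S3I-201, because the authors' tool by default uses the alphabetically first group, DMSO, as reference. The authors name the comparison DMSO vs S3I-201, an order that could also be read as DMSO over S3I-201.

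Exon lengths, overlaps and coding sequences came from GENCODE 29 (GRCh38), matched by symbol for 51 of 51 members. Coding sequences were aligned globally with Biopython 1.88, and other values were computed in Python 3.11.15. For the abundance trend, the median fold change of 20 abundance bins was subtracted; this step was tested on simulated data. Named were all members with an adjusted or unadjusted p under 0.05, the 4E-binding proteins and members listed at 0. Named too were the extremes and examples per group. Of other lists, those that passed were named with at most 4 that did not. For the mTORC1 list, further inhibitors that did not pass were added. Members and lists were chosen with earlier results of these data known.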

Additional observations from a re-analysis of the deposited data

How the results depend on the processing

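The calls of EIF4EBP1, EIF1 and EIF2S2 were kept with adjustment over every gene with a p-value, with the abundance trend removed, at a threshold of 0.01, with a log2 fold change of at least 0.5 and with a mean of at least 100. EIF4EBP1 had an adjusted p of 1.59e-10 with adjustment over every gene and a log2 fold change of 0.98 with the trend removed (adjusted p = 1.26e-11). At a threshold of 0.1 the number of lower members was 1 in place of 0, which is EIF5B. In the list of elongation, termination and hypusination genes, removal of the abundance trend gave 1 higher gene (EEF2) in place of 0 and 1 lower gene (EEF2K) in place of 2; the cause was not tested. The other 55 of 58 values recomputed under alternatives kept their direction and side of the threshold, or stayed within 1.5 times the count or within the median implied SE. The median log2 fold change of the members was -0.07 as reported, -0.01 with the trend removed, -0.08 with a mean of at least 100 and -0.08 without the EIF4EBP genes. No paired analysis was possible because the table pools the libraries of both groups into 1 value per gene. For the same reason leaving out each replicate and the tests on counts were not run. Depth limits EIF4E3 and EIF4EBP3, whose implied SEs of 0.27 and 0.25 were the largest among the members.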
